A study of Mus musculus with 22 samples.

Results

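Tumor-infiltrating leukocytes that carry no sign of Osx-cre activity were compared between mice labelled Cdh2-cKO and mice labelled wild type. These are the CD45 single positive cells (TdT-;CD45+), and they were taken as every library that the labels give as Osx- and CD45+. There were 6 such libraries among the 22 of the series, 3 of each genotype. Wild type here means Osx-cre;Ai9 mice, in which the Cre driven by the Osterix (*Sp7*) promoter turns on the Ai9 tdTomato (TdT) reporter. The other mice are named Cdh2-cKO;Ai9, a conditional knockout of *Cdh2* on the same reporter. All were C57BL/6 at postnatal day 56, 4 wild type and 6 Cdh2-cKO mice were inoculated, and the preparations sequenced were those that passed a test of RNA integrity (average RIN of 8.95). In the methods of the study the Cre is held off by doxycycline until weaning, tumors grow for 2 weeks, and cells are sorted by TdT and CD45. Those methods describe a subcutaneous PyMT-BO1 breast tumor, whereas the labels name an orthotopic MMTV-BO1 tumor, so the tumor is called only a BO1 tumor here. Which part of *Cdh2* was removed, and how many mice stand behind a library, are not given in the sources used here. P-values therefore measure a spread between libraries, which may be partly technical. In the main test this spread was estimated from all libraries of the fit, CD45- cells included, and not from these 6 alone.

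N-cadherin, the product of *Cdh2*, is an adhesion molecule of mesenchymal cells that holds neighboring cells together and binds beta-catenin through its cytoplasmic tail. Osteoblast-lineage cells use it for contact with each other, and most leukocytes make little of it. CD45 (*Ptprc*) is a tyrosine phosphatase on the surface of all nucleated blood cells, so a CD45 sort of a tumor collects macrophages, monocytes, granulocytes, dendritic cells and lymphocytes in whatever proportion they occur. Cells of the CD45 single positive gate are TdT-, and a deletion by Osx-cre is therefore not expected to have taken place in most of them. The comparison asks whether these bystander leukocytes differ when the cells of the Osx lineage around them carry the knockout. In such a bulk sort, fewer cells of a type and less RNA per cell cannot be told apart.

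*Cdh2* was low in the CD45 single positive cells of both genotypes. Its level was 0.361, 1.55 and 0.485 CPM in wild type replicates 1 to 3, and 0.385, 2.74 and 0.769 CPM in Cdh2-cKO replicates 1 to 3 (CPM, the reads of a gene relative to all reads of its library, normalized with TMM factors). A signal of 3 counts corresponds to between 0.162 and 0.201 CPM in these libraries, a floor that covers counting error only. Without wild type replicate 2 the log2 fold change of *Cdh2* was 1.58 ± 0.84 SE. The libraries labelled Cdh2-cKO were thus not lower than the wild type libraries (log2 fold change 0.69 ± 0.76 SE with all 6, edgeR adjusted p = 0.787). Neither were they in the CD45- populations, where the gene is made: *Cdh2* stood at 17.2 and 13.1 CPM in TdT single positive cells labelled Cdh2-cKO, against 9.13 and 5.19 CPM in wild type. In double negative cells it stood at 12.5, 18.4 and 14.2 CPM against 6.02, 7.47 and 4.52 CPM. The level of the whole gene therefore gives no check of the genotype labels, since a transcript lacking the deleted exons would still be counted, and the groups are named below as the libraries labelled Cdh2-cKO and wild type. *Sp7* had 1 read in 1 of the 6 libraries, in Cdh2-cKO replicate 2.

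The 6 libraries hold 17267392 to 20350177 reads on the 41388 genes of the deposited tables. The label of the sort was borne out by *Ptprc*, which stood at 509.7, 1821 and 554 CPM in wild type and at 545, 482 and 575 CPM in Cdh2-cKO. Over the CD45- libraries its median was 27.1 CPM, with a range from 2.45 to 337 CPM. Some CD45- libraries thus also held leukocyte transcripts, and their macrophage markers summed to as much as 12296 CPM. The sexes of the mice were not balanced between the genotypes. *Xist*, the RNA that silences the second X chromosome of females, was at 3.37 and 12.2 CPM in wild type replicates 1 and 2, and between 106 and 163 CPM in wild type replicate 3 and the 3 Cdh2-cKO libraries. *Ddx3y*, an RNA helicase gene on the Y chromosome, was at 56.3 and 184 CPM in the former 2 libraries and at or below 0.736 CPM in the latter 4. Genotype and sex can thus be told apart only through wild type replicate 3.

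Wild type replicate 2 differed from the 5 other libraries in the cell types its transcripts mark. The 16 macrophage markers, led by *C1qb*, *Apoe* and *Cd68*, summed to between 20090 and 27570 CPM in these 5 libraries and to 5023 CPM in wild type replicate 2. The 19 B cell markers in the files ran the other way, from between 131 and 165 CPM to 10830 CPM, which is 65.7 times the highest of the other libraries. T cell markers summed to 6437 CPM in wild type replicate 2 and to at most 289.7 CPM elsewhere, and NK and cytotoxic markers to 3497 CPM against at most 259.1 CPM. *Pax5*, the defining transcription factor of B cells, was at 24.5 CPM in wild type replicate 2 and had no read in the 5 others (named after its values were seen), where *Cd37*, a tetraspanin of several leukocyte types, made up most of the B cell sum at 79.6 to 103 CPM. For T cells a single gene shows the scale: *Lck*, the kinase of the T cell receptor, was at 609.6 CPM in wild type replicate 2 and at or below 20.6 CPM in the others. The endothelial list stood out in this library too, at 218.6 CPM against at most 25.11 CPM, mostly through *Pecam1*, which leukocytes also make (214 CPM). The 5 other libraries were not of one kind throughout: the 16 mast cell, basophil and eosinophil markers summed to 105.5 CPM in wild type replicate 1 and to between 9.70 and 19.3 CPM in the remaining 4, a range of 10.9-fold, and to 332 CPM in wild type replicate 2.

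**Figure D1:**
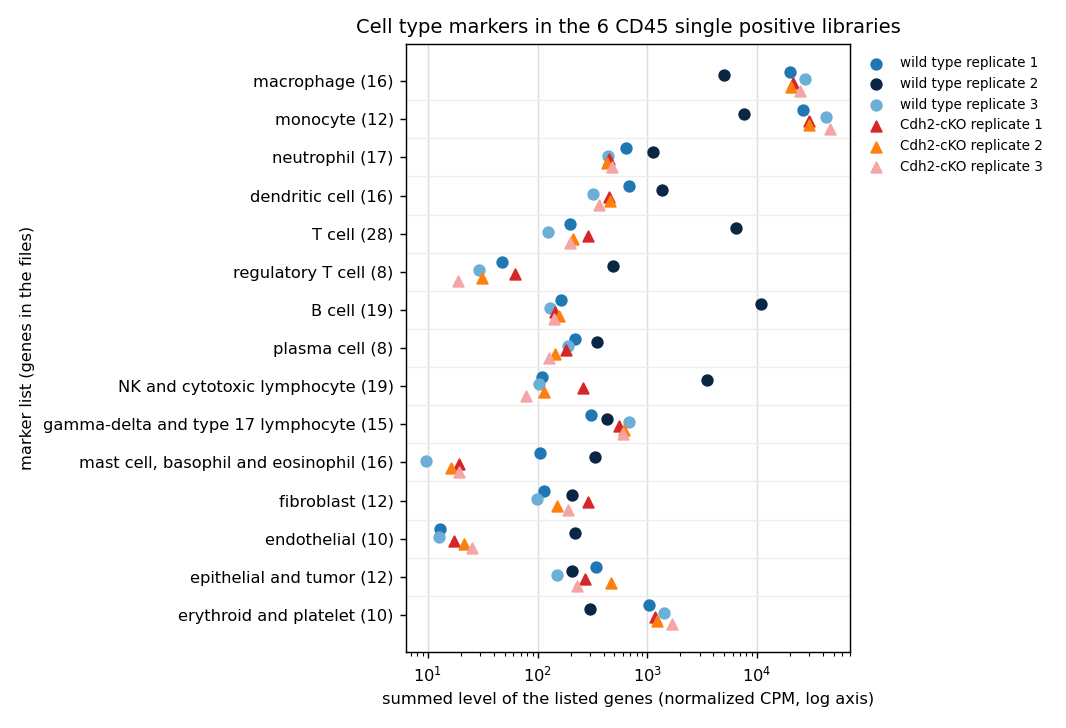
Summed level of each list of cell type markers (normalized CPM, log axis) in the 6 CD45 single positive libraries, circles for wild type and triangles for Cdh2-cKO, with the number of genes of the list in the files in brackets. Wild type replicate 2 lies at 10830 CPM for B cell markers and at 5023 CPM for macrophage markers, apart from the 5 others, which span 10.9-fold for the mast cell, basophil and eosinophil list and at most 3.33-fold for each other list of cell types.

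Principal components of log2 CPM over 12363 genes also set this library apart. With all 6 libraries the first component carried 62.2% of the variance and placed wild type replicate 2 at 119.7, with the 5 others between -35.4 and -7.9. Without that library the first component (40.1%) set wild type replicate 1 apart at 52.8, while wild type replicate 3 lay at -0.2, next to Cdh2-cKO replicate 1 at 4.9. The second component (25.7%) placed the same pair at 31.4 and 23.8 and the other Cdh2-cKO libraries at -29 and -4.9. The genotypes did not form separate groups on either component. Of the 10 pairs of libraries without wild type replicate 2, the 6 pairs of different genotype differed by a median of 0.216 to 0.355 per gene on the log2(CPM + 1) scale, and the 4 pairs of the same genotype by 0.229 to 0.317. In the 5 pairs with wild type replicate 2 the median was 0.593 to 0.632.

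**Figure D2:**
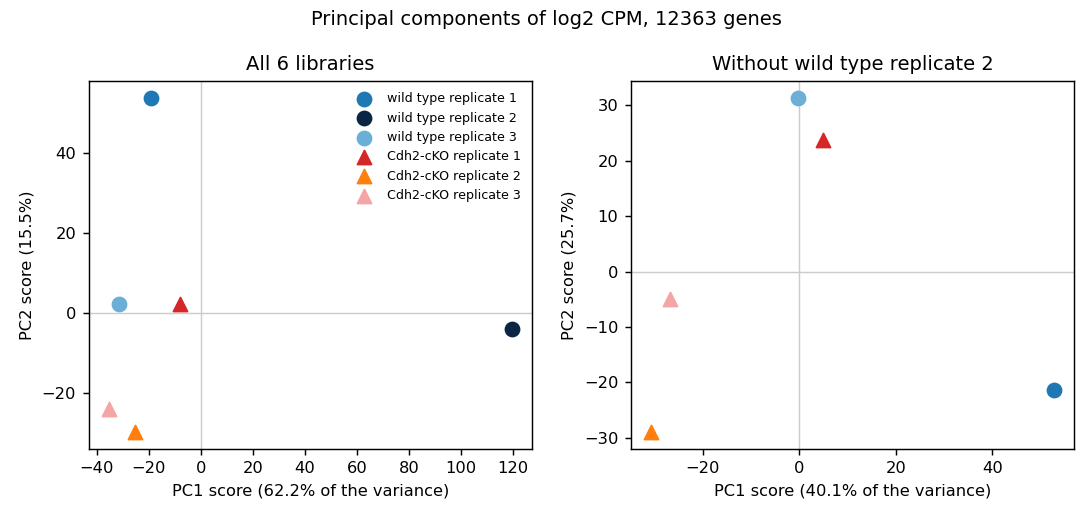
Scores of the CD45 single positive libraries on the first 2 principal components of log2 CPM, with all 6 libraries on the left and without wild type replicate 2 on the right. Wild type replicate 2 lies alone at 119.7 on the left, and on the right wild type replicate 3 and Cdh2-cKO replicate 1 are neighbors.

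With all 6 libraries, no gene differed between the genotypes at an adjusted p of at most 0.05 in edgeR, the main test, or with voom, while DESeq2 called some. edgeR's quasi-likelihood test, fitted to the 22 libraries with a mean for each of the 8 groups, called 0 of 15018 genes (0%), and its smallest adjusted p was 0.417. At an unadjusted p under 0.05 there were 1474 genes, 288 higher (1.92% of those tested) and 1186 lower (7.9%) in the libraries labelled Cdh2-cKO. The voom test called 0 genes as well, with 1006 under the same unadjusted limit. DESeq2 called 26, of which 1 was higher and 25 lower. In the 4 libraries with high *Xist* alone, a choice made after seeing the data, edgeR called 0 as well, with 369 at the unadjusted limit. The genes that DESeq2 called lower include *Ighm*, *Ebf1* and *Trac*, of B and T cells. In these 3 genes the wild type mean rests on replicate 2, and *Ighm* stood at 28.7, 2064 and 7.43 CPM in wild type and at 21.04, 5.95 and 2.24 CPM in Cdh2-cKO (the 3 genes were named after their values were seen).

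Many of the lower genes were highest in the lymphocyte-rich library. Of the 1186 genes lower at the unadjusted limit, 449 (37.9%) were over 4 times higher in wild type replicate 2 than in every other CD45 single positive library, against 4.95% of all genes tested. Because that library is part of the wild type mean, a gene so high there falls on the lower side largely by construction. Among the 9 genes named for a small p on the lower side were *Igkc*, the kappa light chain constant gene, and *Ms4a1*, a surface protein of B cells. *Igkc* was at 7.64, 2477 and 1.35 CPM in wild type and at 3.68, 1.34 and 1.47 CPM in Cdh2-cKO, and *Ms4a1* at 0.421, 929 and 1.24 CPM against 1.65, 1.204 and 1.35 CPM. For both, the genotypes overlapped with and without wild type replicate 2. *Aff3*, a nuclear protein of lymphoid cells, was also carried by that library, at 32.4 CPM against 0.421 and 0.431 CPM in the other wild type libraries and 0 to 0.110 CPM in Cdh2-cKO.

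The remaining 6 genes of the lower side, with *Aff3*, did not overlap between the genotypes, which their choice by p largely fixes (5.9% of all genes tested were lower without overlap). *Rbm38* (ENSMUSG00000027510, GRCm38 chr2:173020498-173034734), which encodes an RNA-binding protein of the p53 response, had the smallest p of all named genes here. It was at 3.13, 16.8 and 4.58 CPM in wild type and at 1.04, 1.07 and 1.02 CPM in Cdh2-cKO. The 3 Cdh2-cKO libraries were thus almost equal and below each wild type library (log2 fold change -2.96 ± 0.57 SE, edgeR adjusted p = 0.417). Without wild type replicate 2 the log2 fold change of *Rbm38* was -1.87. *Pbx2*, a homeobox partner of Hox proteins, was at 13.8, 13.98 and 15.03 CPM in wild type and at 8.84, 7.63 and 6.98 CPM in Cdh2-cKO. *Fbxl6* (chr15:76535721-76538746), an F-box protein, was at 9.08, 9.45 and 12.6 CPM against 5.49, 6.09 and 5.06 CPM. For both, the wild type library rich in lymphocytes had the level of the other wild type libraries. *Cnst*, *Zfp646* and *Grk6*, a kinase of G protein-coupled receptors, were also below each wild type library in all Cdh2-cKO libraries, and in these 3 wild type replicate 2 was the highest. DESeq2 called *Rbm38*, *Cnst*, *Pbx2* and *Fbxl6* of this side, at adjusted p = 0.00123, 0.0409, 0.0409 and 0.0495.

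The 10 named genes with the smallest p on the higher side included *Phactr2*, *Anxa1*, *Fabp5* and *Ctsl*. None of them overlapped between the genotypes, which their choice by p largely fixes (4.16% of all genes tested were higher without overlap). *Phactr2* (ENSMUSG00000062866, chr10:13207717-13474412), a regulator of phosphatase 1 and actin, led them at 48.0, 28.8 and 24.9 CPM in wild type and 76.03, 81.1 and 88.7 CPM in Cdh2-cKO. Its mean was 33.9 ± 12.4 against 81.9 ± 6.39 CPM (SD, n = 3), a log2 fold change of 1.27 with a 95% interval from 0.68 to 1.87. *Anxa1*, an anti-inflammatory phospholipid-binding protein, was at 1714, 592 and 1767 CPM against 2816, 2755 and 4202 CPM. Both genes are expressed by many cell types. Proteins of lipid handling and the lysosome were among the others: the fatty acid carrier *Fabp5* was at 117, 89.1 and 107 CPM against 156, 207 and 242 CPM, and the cathepsin *Ctsl* at 1166, 769.9 and 1200.4 CPM against 1329, 2051 and 2676 CPM. The metallothionein *Mt2*, which binds zinc and copper, was at 71.1, 36.3 and 82.2 CPM against 92.1, 199 and 222 CPM. Of the lower-expressed genes on this side, *Calcb*, which encodes the beta form of the calcitonin gene-related peptide, was at 0.963, 0.859 and 0.485 CPM against 6.92, 3.08 and 6.60 CPM. *Lpar4*, a receptor for lysophosphatidic acid, was at or below 0.172 CPM in wild type, at or under the level of 3 counts, and between 0.494 and 1.09 CPM in Cdh2-cKO. The remaining 3 were *Cyp2j6*, *Lyplal1* and *Cdkl2*. In the CD45- libraries the median of 4 of the 10 was above all 6 CD45 single positive libraries, that of *Mt2* at 234 CPM. Of the 288 genes higher at the unadjusted limit, 65 (22.6%) had a CD45- median over 4 times each of the 6 libraries, against 9.85% of all genes tested. A share of stromal RNA in these differences was not tested. None of the 10 passed the adjusted test in edgeR, where the adjusted p of each was 0.417, and DESeq2 called 1 of them, *Phactr2*, at adjusted p = 0.0129.

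**Figure D3:**
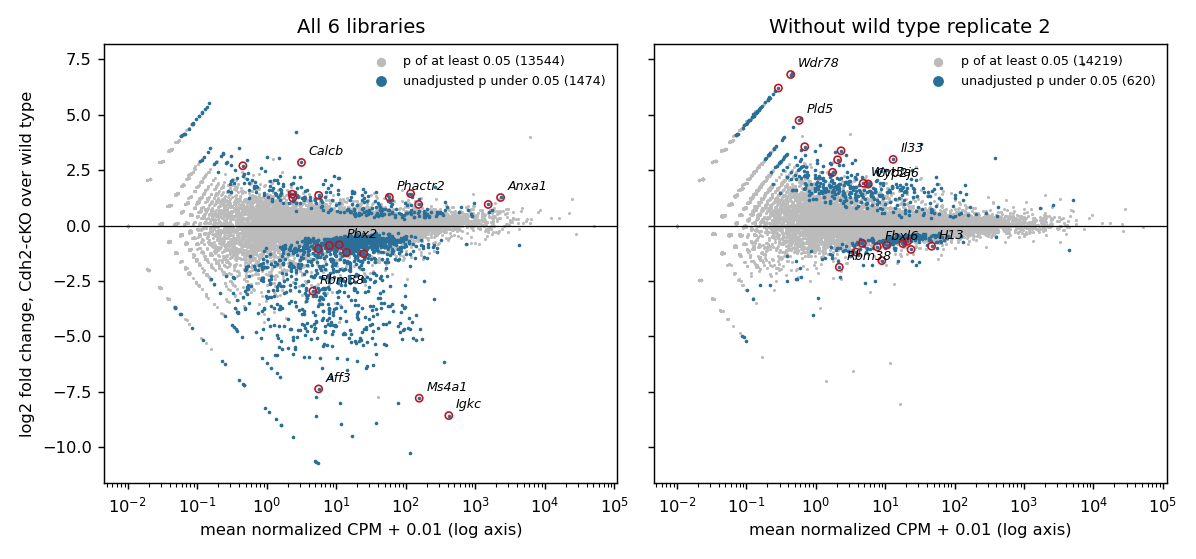
Log2 fold change of Cdh2-cKO over wild type against the mean normalized CPM (plus 0.01, log axis) for each gene tested, with all 6 libraries on the left and without wild type replicate 2 on the right; blue points have an unadjusted p under 0.05 and red rings mark the named genes. On the left 1186 blue points lie below 0 and 288 above, and on the right 217 lie below and 403 above.

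Without wild type replicate 2, again no gene passed the adjusted test in edgeR, and the balance of directions turned. With 2 wild type against 3 Cdh2-cKO libraries, and the 21 remaining libraries in the fit, edgeR called 0 of 14839 genes (0%), with a smallest adjusted p of 0.233. At the unadjusted limit there were 620 genes, 403 higher (2.72%) and 217 lower (1.46%) in Cdh2-cKO. The voom test called 0, with 807 at the unadjusted limit. DESeq2 called 4, all higher in Cdh2-cKO: *Cyp2j6*, *Cth*, *C1qtnf1* and *Il33*.

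Genes of the CD45- stroma made up much of the higher side. Of the 403 genes, 180 (44.7%) had a median in the CD45- libraries over 4 times the level of each of the 6 CD45 single positive libraries, against 9.97% of all genes tested. *Il33*, an alarmin of stromal and epithelial nuclei, is an example. It was at 1.74 and 3.29 CPM in wild type replicates 1 and 3 and at 10.7, 32.2 and 16.98 CPM in Cdh2-cKO, while the CD45- libraries ranged from 138 to 450.5 CPM. *Wnt5a*, a secreted ligand of non-canonical Wnt signaling, was at 1.62 and 1.99 CPM against 5.71, 9.70 and 4.997 CPM, with a median of 314 CPM in CD45- libraries. *Cyp2j6*, a cytochrome P450, was at 1.56 and 2.80 CPM against 5.27, 11.2 and 7.56 CPM, with a CD45- median of 37.7 CPM. For *Cth*, which makes cysteine from cystathionine, the values were 0.421 and 0.377 CPM against 3.19, 4.35 and 1.92 CPM. The secreted protein gene *C1qtnf1* stood at 0.361 and 0.323 CPM against 1.81, 6.76 and 2.24 CPM, and *Heg1*, a membrane protein of endothelium, at 0.481 and 0.485 CPM against 2.97, 3.08 and 1.67 CPM. In each of these 6 genes, every Cdh2-cKO library was above wild type replicates 1 and 3. Their choice by p largely fixes this, and 10.4% of all genes tested were higher without overlap. Wild type replicate 2 had 20.1 CPM of *Il33*, 10.8 CPM of *Cth* and 38.5 CPM of *Heg1*, within or above the range of Cdh2-cKO. In the CD45- libraries the median of 8 of the 10 named genes on this side was above all 6 CD45 single positive libraries.

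The remaining genes of the higher side were near the floor. *Wdr78*, an axonemal dynein protein, had no read in wild type replicates 1 and 3 and 10, 13 and 11 reads in the Cdh2-cKO libraries, at least 4.14-fold higher when wild type is set at 3 counts per library. Wild type replicate 2 had 35 reads. *Htr2a*, a serotonin receptor, had 5, 11 and 6 reads in Cdh2-cKO and none in wild type replicates 1 and 3, at least 2.72-fold higher by the same bound. *Cobll1* and *Pld5* were at or below 1.87 CPM in these 5 libraries, while wild type replicate 2 had 17.9 CPM of *Cobll1*. With that library included, *Cobll1*, *Heg1* and *Cth* turned in direction, from log2 fold changes of 3.55, 2.40 and 2.96 to -2.48, -2.35 and -0.29.

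On the lower side the differences were smaller. The 10 named genes had log2 fold changes between 0.712 and 1.87 in size. *Rbm38*, *Fbxl6*, *Pbx2* and *Cnst* were among them, as they were with all 6 libraries. *Sirt7*, a nuclear deacylase, was at 24.7 and 23.6 CPM in wild type replicates 1 and 3 and at 16.6, 12.5 and 12.2 CPM in Cdh2-cKO, with 31.9 CPM in wild type replicate 2. *Letm1*, an ion exchanger of mitochondria, was at 30.9 and 23.6 CPM against 15.5, 18.9 and 15.4 CPM. *H13*, the signal peptide peptidase, was at 63.1 and 67.1 CPM against 32.96, 34.5 and 34.7 CPM, while wild type replicate 2 had 25.7 CPM, below all 3 Cdh2-cKO libraries. *Acaa1a*, a thiolase of peroxisomes, likewise had its lowest wild type value in replicate 2 (12.9 CPM against 27.8 and 41.2 CPM in the others, and 12.9 to 20.3 CPM in Cdh2-cKO). *Cog8* of the Golgi and *Mpv17l2* of mitochondria completed the side. Of all genes tested, 11.1% were lower and 10.4% higher without overlap between these 2 and 3 libraries, so separation of the groups is frequent at this number of libraries. Of the 34 genes named from both comparisons, 7 share exon sequence with another protein-coding gene, *Pbx2*, *Sirt7*, *Cog8*, *Acaa1a* and *Mpv17l2* among them. Their counts hold only reads that the counting could assign to 1 gene.

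The same genes were then read in the double positive cells (TdT+;CD45+) of both genotypes, which the sort separated from the CD45 single positive cells by TdT only. The sexes were spread otherwise there. *Xist* was at 4.99 CPM in wild type replicate 1 and at 4.12 CPM in Cdh2-cKO replicate 2, and between 102 and 175 CPM in the other double positive libraries. A genotype effect that differs between the 2 populations can therefore not be told apart from sex. *Phactr2* was at 59.5, 59.4 and 75.7 CPM in wild type and 70.3, 74.3 and 67.5 CPM in Cdh2-cKO double positive cells, so the genotypes overlapped there. The same held for *Pbx2* (11.0, 10.9 and 7.65 against 12.97, 10.2 and 8.78 CPM), *Fbxl6* (7.78, 7.90 and 9.39 against 9.49, 7.86 and 8.30 CPM) and *Rbm38* (3.57, 3.74 and 2.74 against 2.32, 3.15 and 3.91 CPM). *Ctsl* was at 1146, 1067 and 1003 CPM against 1648, 1086 and 1668 CPM, which overlapped by 1 library. *Mt2* and *Wnt5a* did not overlap there. *Mt2* was at 54.8, 79.1 and 78.3 CPM in wild type and at 142, 89.4 and 165 CPM in Cdh2-cKO double positive cells, and *Wnt5a* at 2.14, 1.40 and 2.27 CPM against 4.08, 2.96 and 4.75 CPM. Of the 19 genes named with all 6 libraries, 14 had the same sign in double positive cells, and 1 of them, *Mt2*, had an unadjusted p under 0.05 there. Of the 20 named without wild type replicate 2, 13 had the same sign and 1, *Wnt5a*, was under that limit. Over all genes tested 3.43% were under it in double positive cells. The share of all genes with the same sign in both cell types was not determined, so the counts of signs have no background here. The difference of the genotype effect between CD45 single positive and double positive cells was tested directly. edgeR called 0 of 15018 genes (0%) with all libraries, with 655 (4.36%) at an unadjusted p under 0.05 and a smallest adjusted p of 0.953. Without wild type CD45 single positive replicate 2 it called 0 of 14839 (0%), with 665 (4.48%) at that limit and a smallest adjusted p of 0.299. The voom test called 0 in both, and DESeq2 called 0 and 1, the latter *Cth* at adjusted p = 0.0172.

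**Figure D4:**
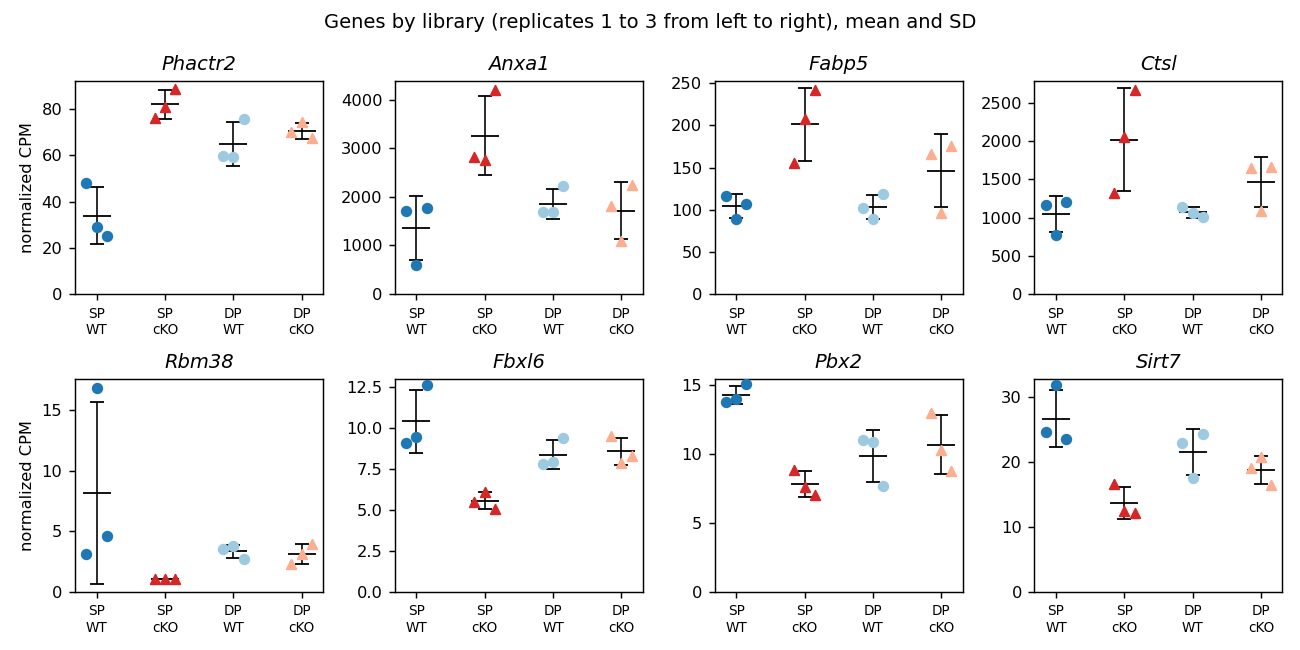
Normalized CPM of 8 of the named genes in each CD45 single positive (SP) and double positive (DP) library of both genotypes, replicates 1 to 3 from left to right, with the mean and SD of each group. In SP cells the circles of wild type and the triangles of Cdh2-cKO do not overlap for any of the 8 genes, which their choice by p in SP cells largely fixes. In DP cells the genotypes overlap for each of the 8. *Mt2* and *Wnt5a*, which are named in the text and not drawn, do not overlap in DP cells.

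The gene lists described what the leukocytes were and did. With all 6 libraries, edgeR called none of the genes tested in the 31 lists, and DESeq2 called *Lef1*, *Ighm*, *Plac8*, *Ebf1*, *Skap1* and *Trac* among them, all lower. The lymphocyte lists had strongly negative medians: 26 of 28 T cell genes, 10 of the 12 B cell genes tested and 11 of 19 NK and cytotoxic genes were lower at the unadjusted limit (background 7.9%), with median log2 fold changes of -4.45, -5.24 and -3.58, against -0.06 over all genes tested. Lists that share lymphocyte genes followed, with 10 of 21 checkpoint genes and 8 of 20 chemokine receptors lower at that limit. Without wild type replicate 2 the medians of the T cell, B cell and NK lists were 0.44, 0.17 and 0.78, against 0.03 over all genes, and 0 of their genes passed even the unadjusted limit. Cdh2-cKO replicate 1 held the most of these transcripts among the 5 libraries for T cells (289.7 CPM) and NK cells (259.1 CPM). When it was left out as well, the medians of these lists were -0.83 and -0.74.

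Macrophage markers were abundant in both genotypes. The 16 markers had a median log2 fold change of -0.08 without wild type replicate 2, and 0 of 16 passed the unadjusted limit. The SE of *C1qb* was 1.16 in that fit, so a 2-fold change in it would not pass the limit. *C1qb*, a chain of the complement component C1q, was at 6539 and 9167 CPM in wild type replicates 1 and 3 and at 7891, 5848 and 7247 CPM in Cdh2-cKO. *Apoe*, the lipid carrier, was at 3083 and 6239.7 CPM against 2884, 3517 and 4307 CPM. Both genes overlapped between the genotypes. Of the 16 markers, 2 were lower and 1 higher without overlap (background 11.1% and 10.4%; named after their values were seen). *Csf1r*, the receptor of the macrophage growth factor CSF-1, was at 1235 and 1171 CPM against 707, 996 and 860 CPM, and *Cx3cr1*, the fractalkine receptor, at 721 and 693 CPM against 398, 427 and 461 CPM. *Mrc1*, the mannose receptor, was at 859 and 1199.6 CPM against 1397, 1295 and 1729.5 CPM. With wild type replicate 2 (286 CPM of *Csf1r* and 49.2 CPM of *Cx3cr1*) the former 2 genes overlapped. *Lyz2*, the lysozyme of monocytes and macrophages, was at 17612 and 33072 CPM against 21372, 20912 and 36885 CPM, and its log2 fold change of 0.06 had a 95% interval from -2.47 to 2.59. Of the 12 monocyte genes 1 was lower at the unadjusted limit without wild type replicate 2 (background 1.46%). This was *Plac8*, at 88.2 and 8.51 CPM against 22.1, 7.56 and 12.7 CPM (named after its values were seen). Its groups overlapped, and only wild type replicate 1 was above the Cdh2-cKO libraries.

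MHC class II genes, which present antigen to T cells, varied within each genotype. The 10 MHC class II genes summed to 64930 CPM in wild type replicate 1 and 15320 CPM in wild type replicate 3, and to 48177, 37905 and 16463 CPM in the Cdh2-cKO libraries. The range of 4.24-fold over these 5 libraries lay between the 2 wild type replicates. *Cd74*, the invariant chain, accounted for most of it, at 48232 and 10538 CPM against 33934, 29085 and 11761 CPM. The 15 MHC class I genes stayed within 1.44-fold over the same libraries, and the 30 interferon-stimulated genes within 1.53-fold. None of these 3 lists had a gene past the unadjusted limit without wild type replicate 2.

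Genes of macrophage activation and chemokine ligands had mostly positive log2 fold changes without wild type replicate 2, and few passed the unadjusted limit. Of the 23 activation genes tested, 18 had a positive log2 fold change without wild type replicate 2. The median of the list was 0.58, against 0.03 over all genes tested. On the higher side 2 genes passed the unadjusted limit, *Ccl8* and *Cd36* (background 2.72%). With all 6 libraries 0 of the activation genes passed it, and 1 chemokine ligand was higher and 1 lower. *Spp1*, the matrix protein osteopontin, was at 22995 and 16637 CPM in wild type replicates 1 and 3 and at 10662, 32789.9 and 57146 CPM in Cdh2-cKO, so the Cdh2-cKO libraries enclosed wild type. *Arg1*, arginase of alternatively activated macrophages, was at 3691, 2897 and 3874 CPM in wild type and at 4750.4, 5827 and 7231 CPM in Cdh2-cKO. The groups of *Arg1* did not overlap, also with wild type replicate 2 (background 10.4% higher without that library and 4.16% with it). Its log2 fold change of 0.65 without that library had a 95% interval from -1.53 to 2.84. Chemokine ligands had a median of 0.63, with 1 of 33 genes past the unadjusted limit, the same *Ccl8*, at 43.4 and 98.4 CPM against 1131, 288 and 346 CPM, and at 1077 CPM in wild type replicate 2 (named after its values were seen). *Ccl7*, which attracts monocytes through *Ccr2*, was at 973, 558 and 2456 CPM against 2966, 2509.6 and 3659 CPM. *Ccl6* was at 1713 and 1993 CPM against 3109, 3529.9 and 6194 CPM, while wild type replicate 2 had 4636 CPM.

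The lysosome and lipid list had the most genes past the unadjusted limit without wild type replicate 2 among the lists of functions, with 4 of 24 higher and 0 lower (background 2.72% and 1.46%), and 19 of 24 were positive. These 4 were *Ctsl*, *Fabp5*, *Cd36* and *Fabp4*, the latter 3 of which bind or take up fatty acids. *Cd36* was at 29.6 and 14.5 CPM against 34.2, 54.6 and 107 CPM, and *Fabp4* at 2.59 and 1.78 CPM against 4.45, 7.02 and 12.9 CPM (both named after their values were seen). With wild type replicate 2 included, 3 of the 24 were higher at that limit. The median of the list was 0.24 without that library and 0.42 with it, against 0.03 and -0.06 over all genes tested. The most abundant members overlapped between genotypes or had SEs as large as their difference: *Ctsb* was at 7116 and 8411 CPM against 7614, 12848 and 11446 CPM.

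The lists nearest to the function of N-cadherin showed little. *Ctnnb1*, which encodes beta-catenin, was at 120.1, 117 and 117 CPM in wild type and at 125, 119 and 138 CPM in Cdh2-cKO. All 6 values thus lay between 117 and 138 CPM, and the log2 fold change was 0.11 ± 0.19 SE. *Ctnna1*, alpha-catenin, was at 171, 132 and 146 CPM against 159.7, 239.9 and 164 CPM. The most abundant classical cadherin was *Cdh1*, E-cadherin, at 311, 118 and 85.2 CPM against 211, 251 and 132 CPM, with no separation of the genotypes. Of the 19 genes of this list tested, 1 was past the unadjusted limit without wild type replicate 2, the atypical cadherin *Fat1*. Of the 17 Wnt and beta-catenin targets 2 were higher at that limit, *Wnt5a* and *Dkk3*, and 0 lower (background 2.72% and 1.46%; *Fat1* and *Dkk3* were named after their values were seen). The beta-catenin target *Myc* was at 45.2, 97.7 and 52.5 CPM against 64.7, 39.3 and 41.9 CPM.

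Proliferation, glycolysis and handling stress gave no gene past the unadjusted limit in either comparison. The 25 cell cycle genes summed to between 2065 and 2319 CPM in the 5 libraries, the narrowest range of all lists (1.12-fold), and to 970.7 CPM in wild type replicate 2. *Top2a*, the topoisomerase of dividing cells, was at 258 and 245 CPM in wild type replicates 1 and 3 and at 288, 250.4 and 260.2 CPM in Cdh2-cKO. The 25 hypoxia and glycolysis genes ranged over 1.57-fold and the 22 dissociation and heat stress genes over 1.74-fold, with genotypes overlapping in both. Among the osteoclast and RANK genes, *Mmp9*, a gelatinase also listed for neutrophils, was lower at the unadjusted limit in both comparisons, at 72.4, 38.3 and 29.7 CPM against 15.1, 22.6 and 11.4 CPM (named after its values were seen).

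Transcripts of fibroblasts were present at a low level in all 6 libraries. The 12 fibroblast markers summed to 114.2 and 99.07 CPM in wild type replicates 1 and 3, to 207.4 CPM in wild type replicate 2, and to 287.6, 151.4 and 189.4 CPM in Cdh2-cKO. The 3 Cdh2-cKO libraries were thus above wild type replicates 1 and 3, and 2 of them were below wild type replicate 2. In the CD45- libraries the same sum ran from 5525 to 72328 CPM. Without wild type replicate 2, 11 of the 12 genes separated the 2 wild type from the 3 Cdh2-cKO libraries (background 10.4%), 4 were higher at the unadjusted limit, namely *Dcn*, *Lum*, *Postn* and *Col6a1* (named after their values were seen), and all 12 had a positive log2 fold change with a median of 1.26. With all 6 libraries 1 gene was higher at that limit and the median was 0.82. *Dcn*, the proteoglycan decorin, was at 4.69 and 6.09 CPM against 25.8, 9.70 and 16.5 CPM, with 23.7 CPM in wild type replicate 2. *Col1a1*, the main fibrillar collagen, was at 36.1, 54.7 and 25.9 CPM against 68.2, 42.3 and 45.9 CPM, so that wild type replicate 2 lay within the Cdh2-cKO range. The fibroblast sum thus moved with the genotype in 5 libraries, beside the stromal genes of the higher side. Within Cdh2-cKO the orders differed. The sum was highest in replicate 1 and lowest in replicate 2, while *Il33* (10.7 and 32.2 CPM) and *Wnt5a* (5.71 and 9.70 CPM) were lower in replicate 1 than in replicate 2. The part of the fibroblast sum in the differences of the stromal genes was not tested. The epithelial and tumor list had the largest positive median without wild type replicate 2 (1.49), but 0 of its 8 tested genes passed the unadjusted limit, and the keratin *Krt18* was at 17.4, 67.7 and 46.7 CPM against 38.5, 169 and 73.0 CPM.

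**Figure D5:**
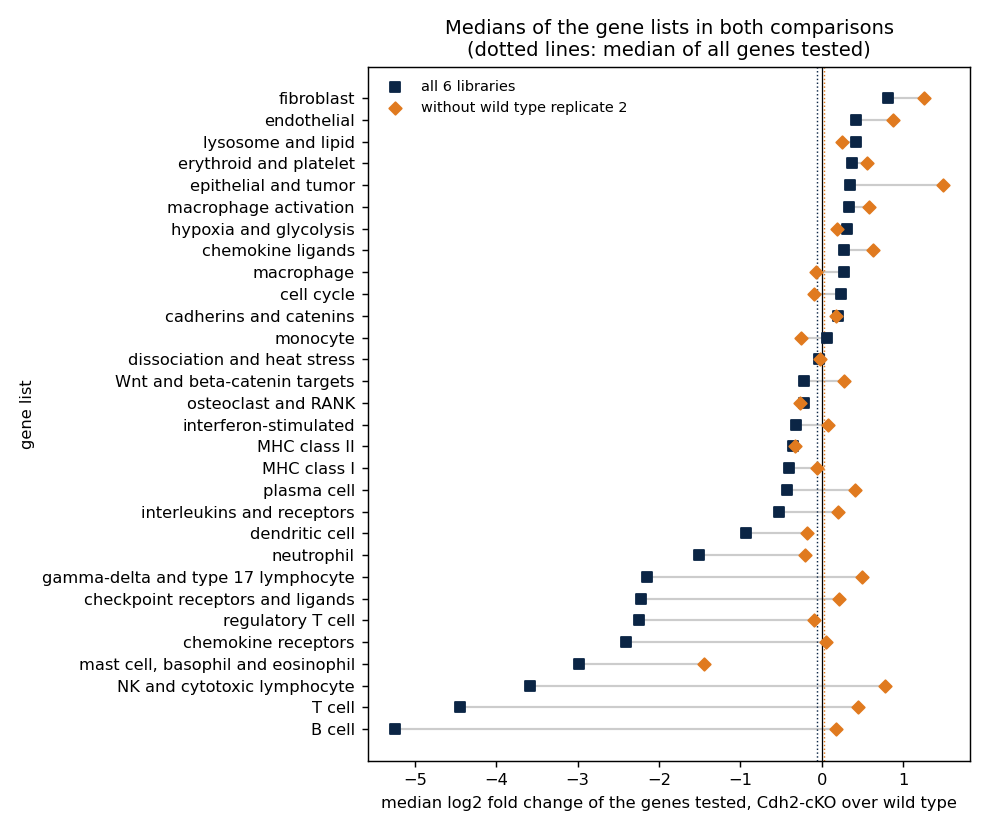
Median log2 fold change (Cdh2-cKO over wild type) of the genes tested in each of 30 gene lists, with all 6 libraries (squares) and without wild type replicate 2 (diamonds); dotted lines give the medians of all genes tested, and the list of sex genes is not drawn. The B cell list lies at -5.24 with all libraries and at 0.17 without that library, while the fibroblast list lies above 0 in both.

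The precision of the comparison can be read from its intervals. Over all 15018 genes the median half-width of the 95% interval of a log2 fold change was 0.825, and for 38.8% of genes the interval lay wholly within a 2-fold change in either direction. Without wild type replicate 2 this share was 44.4% over all genes tested. Among the 7992 genes with a mean of at least 10 CPM over all 6 libraries it was 61.8%. Among the 7704 genes at that level without wild type replicate 2 it was 72.4%, with a median half-width of 0.574. The fit shares 1 estimate of spread per gene over all populations, and macrophage and lymphocyte genes were less well bounded in it. The SE of *Arg1* was 1.03 and that of *Cd74* 1.21 without wild type replicate 2. The 95% interval of *Cd74*, from -2.79 to 2.32, thus held a 2-fold change in either direction. In a fit to the compared libraries alone, 0 genes were called too, with 566 at the unadjusted limit with all 6 libraries and 811 without wild type replicate 2.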

How the data were processed

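RNA was made into cDNA with the SMARTer kit, sequenced, and aligned by the authors to GRCm38 with STAR 2.0.4b, and featureCounts gave read counts per Ensembl gene. The deposited counts are whole numbers, neither normalized nor filtered. The CPM and RPKM values deposited beside them were recomputed from the counts as a check and not used further.

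In R 4.3.3, 355 rRNA genes were left out, and a gene was tested where 2 or more libraries exceeded 1 CPM. edgeR 4.0.16 (TMM, quasi-likelihood) was fitted to all 22 libraries with 8 group means, and to 21 without wild type CD45 single positive replicate 2, with Benjamini-Hochberg adjustment and a threshold of 0.05. limma 3.58.1 (voomWithQualityWeights) and DESeq2 1.42.0 were alternatives, and DESeq2 gave no p-value for 101 and 65 genes. Fits were tested on simulated counts. SEs derive from the quasi-likelihood F. Gene positions and types are from GENCODE M21.

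Named are *Cdh2*, *Ptprc*, *Sp7*, the sex genes, the 10 higher and 10 lower genes of smallest p in each comparison (unnamed models, pseudogenes and variable segments left out, and 1 gene not reported here), and the 3 most abundant genes of each list. The libraries, comparisons and lists were chosen with earlier results of these data known.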

Additional observations from a re-analysis of the deposited data

How the results depend on the processing

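Each comparison was repeated with RLE factors, no filter, a filter on the CD45 single positive libraries, voomWithQualityWeights, DESeq2, a robust fit, the compared libraries only, a replicate block, and each library left out. DESeq2 was the only one of these to call genes: 26 with all 6 libraries, 4 without wild type replicate 2, and 1 for the difference from double positive cells without that library. All others gave 0, and so did leaving out each library, whose lowest and highest counts were 0 and 0 in the 4 comparisons. The cause was not tested. The fit with a replicate block had a minimum adjusted p of 0.62 (0.0944 without wild type replicate 2). Same-numbered libraries deviated together by -0.143, -0.0165 and 0.273 (correlation over genes), and the labels do not say that a number marks a shared mouse. By *Xist* it did not for replicate 2. In Cdh2-cKO replicate 2 *Xist* was at 106 CPM in CD45 single positive and at 4.12 CPM in double positive cells. In wild type replicate 2 it was at 12.2 and 139 CPM in the same order. The numbers were therefore not taken as pairs. 2 alternatives were chosen after seeing the data: libraries with high *Xist* only (1 wild type against 3 Cdh2-cKO, where the lone sample is assumed to vary like the other groups) and the level of Y-linked transcripts as a covariate. Both gave 0 genes, with 369 and 712 at an unadjusted p under 0.05 with all 6 libraries.

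Of the 39 log2 fold changes followed, 2 turned in sign in 4 cases, those of *Igkc* and *Ms4a1* with all 6 libraries. *Ms4a1* was at 0.32 with voomWithQualityWeights. Leaving out each library, *Ms4a1* ranged from -8.366 to 0.746, positive only without wild type replicate 2. The alternatives of the comparison without wild type replicate 2 did not put that library back. With it, *Cth*, *Cobll1* and *Heg1* turned to -0.29, -2.48 and -2.35. With high *Xist* only, *Igkc* was at 0.688 and *Ms4a1* at 0.177. DESeq2 called 5 of the named genes with all 6 libraries (*Phactr2*, *Rbm38*, *Fbxl6*, *Cnst* and *Pbx2*) and 4 without wild type replicate 2 (*Cyp2j6*, *Cth*, *C1qtnf1* and *Il33*). The repeated medians of gene lists moved by over 1 SD between libraries in 66 cases and stayed within it in 430 with all 6 libraries, and in 57 and 377 cases without wild type replicate 2. The depth of 17267392 to 20350177 reads limits genes under about 0.2 CPM. The number of 3 libraries a group is a further limit, and its weight beside cell composition and the shared spread was not tested.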
